A study of Caenorhabditis elegans with 7 samples.

Results

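The F-box genes of the fbxa, fbxb and fbxc classes were followed in the small RNA of Caenorhabditis elegans embryos. Members were all genes of the deposited junction table whose name begins with fbxa-, fbxb- or fbxc-. There were 59 such genes among 3717, of which 31 were fbxa, 17 were fbxb and 11 were fbxc genes. They contributed 93 of 7678 introns. The RefSeq gene table lists 391 genes with such symbols, and those without a listed junction are not analysed here. Of the 59 genes, 52 are annotated as protein-coding and 7 as pseudogenes (fbxa-46, fbxa-97, fbxa-149, fbxa-178, fbxa-203, fbxc-37 and fbxc-38). They lie on chromosomes II (21 genes), V (14), III (11), X (7), I (4) and IV (2).

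Small RNA had been cut from a gel after embryos were freed from adults with hypochlorite, and 7 libraries came from 5 genotypes in the N2 strain background. Wildtype and rnp-2(mg582) had 2 libraries each, numbered by experiment. A single library was made from each of mog-2(ok1221) and rnp-3(ok1424), in experiment 1, and from rnp-2(tm4058), in experiment 2. As background, rnp-2 encodes the worm A protein of the U1 particle, and rnp-3 and mog-2 encode the B'' and A' proteins of the U2 particle. Both particles recognise introns. Separate cultures are not stated for libraries of the same genotype, so the spread behind each p-value may be technical.

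F-box proteins are the substrate-binding subunits of SCF ubiquitin ligases. The F-box holds the protein to a Skp1-like subunit, and the rest of the protein binds the target that is to be marked with ubiquitin. In worms the family is large and lies in clusters of similar genes, and the targets of most members are not known. Small RNAs of the 22G and 26G kinds are made in worm embryos from RNA templates, so a small RNA read across a junction records whether its template had been spliced.

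The table gives 2 values at each end of an intron. Following the usual meaning of the abbreviations, which the labels do not spell out, EEJ is read as spliced (exon-exon) and IEJ as unspliced (intron-exon) reads. Levels below are scaled CPM, the deposited reads relative to the library total (CPM) after adjustment of each library for its bulk of spliced junction reads (TMM). Library totals ran from 9901228 to 142819946 reads and spliced junction reads from 73843 to 474217, with the fewest in rnp-2(tm4058). Listed under members were 31514 spliced and 14453 unspliced reads. In wildtype they made up 2.05% ± 0.0136 of the spliced and 8.98% ± 1.17 of the unspliced reads in the table (mean ± SD, n = 2). Of the marker lists, 2 of 12 zygotic embryo genes, 7 of 12 maternal and germline genes, 3 of 8 sperm genes and 0 of 6 adult intestine genes were in the table. Summed spliced reads of the listed sperm genes were 2.91 to 3.57 scaled CPM in wildtype, 1.55 to 1.75 in the rnp-2(mg582) libraries and 1.16 to 2.93 in the other 3, and the part of this in the results was not tested. In the same order the sums were 7.45 to 7.66, 6.15 to 6.56 and 7.24 to 7.303 for maternal genes, and 0.158 to 0.306, 0.181 to 0.614 and 0.0586 to 0.408 for zygotic genes.

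Splice site sequences are shown first for the introns where unspliced reads outnumbered spliced ones, since these loci stand apart from the rest of the family. Each donor has 5 exon and then 10 intron bases, and each acceptor has 10 intron and then 5 exon bases. Capitals mark the first 2 and the last 2 intron bases as the table places them.
fbxc-43 donor: tgaaaGTagttcata
fbxc-43 acceptor: gttcctccAGaactg
fbxb-37 intron 2 donor: gtcatGTgtgtctcg
fbxb-37 intron 2 acceptor: accattgaAGaagtc
fbxa-149 intron 3 donor: agaaaGTaattttca
fbxa-149 intron 3 acceptor: gactttccAGctgga
fbxc-38 intron 1 donor: ggccaGTttttttcg
fbxc-38 intron 1 acceptor: cgatgcgtAGaaagt
fbxb-52 intron 1 donor: tttatGTaactaatt
fbxb-52 intron 1 acceptor: ccacttctAGaacta
fbxc-23 intron 1 donor: aagaaGTgggtttta
fbxc-23 intron 1 acceptor: acgattacAGaagcc
fbxa-218 intron 1 donor: cagcaGTaagtagtt
fbxa-218 intron 1 acceptor: ttaattccAGacaat

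For contrast, the pair of fbxa-149 introns with the most spliced reads, and the most read intron of the fbxb class, had the following sites.
fbxa-149 intron 4 donor: ttacaGTgagttttt
fbxa-149 intron 4 acceptor: attcttccAGagctt
fbxa-149 intron 5 donor: tatgaGTaagcacat
fbxa-149 intron 5 acceptor: gcaatttcAGtcaac
fbxb-97 donor: gatttGTgagtttaa
fbxb-97 acceptor: tcattttcAGaatga

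The acceptor hexamer TTTCAG, the commonest form in worms, was searched for at the end of the intron on the transcribed strand. It was absent from all 7 introns of the first set and present in 43 of the other 86 member introns (50%). In other genes with at least 20 reads it stood in 35.7% of 305 introns where unspliced reads led and in 50.2% of 6983 introns where they did not. A missing match says only that these letters are not there. Only 2 of the 7 introns have all listed ends at annotated boundaries. The others have a listed end that is not an annotated boundary, so the 2 sets of member introns are unlike. For 4 of the 7 only 1 end is listed and its side is not known. Whether the acceptors printed for these 4 are annotated was not checked. Donors beginning GTAAGT or GTGAGT made up 21.5% and 20.4% of the member introns, against 14.9% and 12.9% of 7585 introns of other genes. Both forms together were densest in fbxb, with 8 of 19 introns each. Member introns were short, with a median length of 52 bases, against 58 in other genes.

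Unspliced reads outnumbered spliced reads at 7 of the 88 member introns with at least 20 reads (7.96%), and at 4.19% of 7288 such introns in other genes. Unspliced reads were counted per listed end here. Most of the 7 were not introns in the annotation: all listed ends matched an annotated boundary in 2 of the 7 (28.6%), against 79 of the other 81 (97.5%). In other genes the same shares were 69.5% and 98.4%. The unspliced reads listed under F-box genes therefore lay mainly at a few sites inside exons, and 87.5% of them were listed under fbxc-43 and fbxb-37. Of the 4055 listed under fbxb-37, 4054 lie in an exon of T16A1.10, outside the annotated fbxb-37. At a site inside an annotated exon, an unspliced read does not show that an intron was kept.

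**Figure D1:**
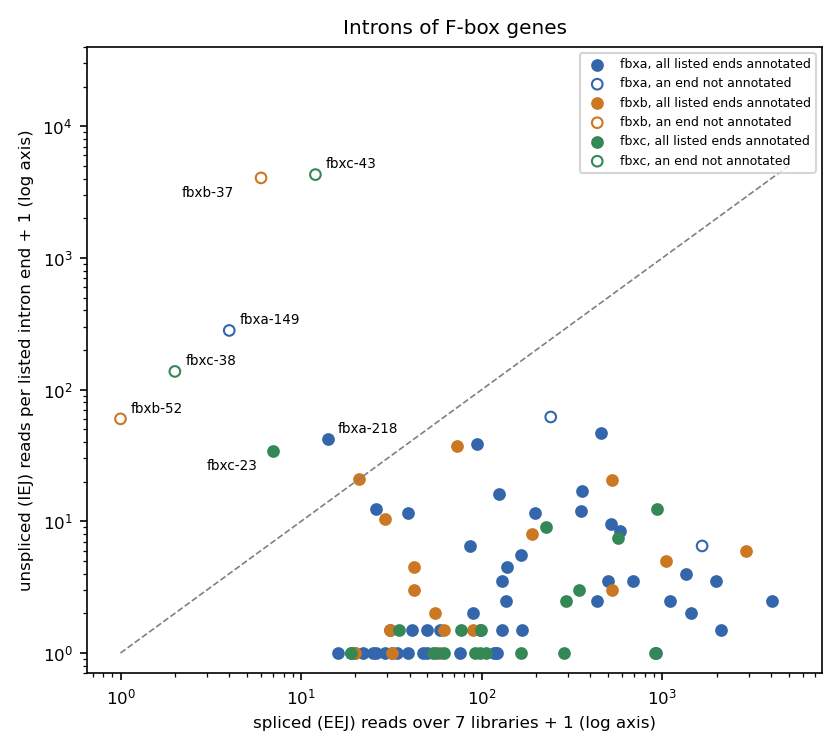
Unspliced against spliced reads for each of the 93 introns, summed over 7 libraries, on log axes with 1 read added. Open points are introns with an end that the annotation does not hold. The 7 introns above the dashed line of equality are named, and those of fbxc-43 and fbxb-37 lie highest, at 4295 and 4054 unspliced reads per end.

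The intron listed for fbxc-43 (II:4235376-4235469, minus strand) lies inside an exon of fbxc-43 and is not an annotated intron. It had 8590 unspliced and 11 spliced reads over the 7 libraries. Unspliced reads at its donor end were 907 in wildtype 1, 1565 in wildtype 2, 544 and 712 in rnp-2(mg582) 1 and 2, 301 in rnp-2(tm4058), 946 in mog-2(ok1221) and 511 in rnp-3(ok1424). By unspliced reads it was the highest or the second highest end of the whole table in each of the 7 libraries. The unspliced share at this end was between 99.6% and 100% in every library. Its lowest exact binomial bound, which covers counting error only since reads are not independent molecules, belonged to the acceptor end in rnp-3(ok1424), where the share was 99.5% with a lower bound of 97.2%.

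After scaling, unspliced reads of fbxc-43 over both ends were 30.9 ± 7.03 scaled CPM in wildtype and 31.4 ± 8.30 in rnp-2(mg582) (mean ± SD, n = 2 each). The log2 difference was 0.02 ± 0.28 (SE; limma adjusted p = 0.978). The ratio of donor to acceptor reads was higher in all 4 libraries of experiment 1 than in the 3 of experiment 2. Donor to acceptor ratios were 2.49 in wildtype, 2.202 in rnp-2(mg582), 2.80 in mog-2(ok1221) and 2.61 in rnp-3(ok1424) in experiment 1. In experiment 2 they were 1.35 in wildtype, 1.36 in rnp-2(mg582) and 1.09 in rnp-2(tm4058). With 11 spliced reads fbxc-43 did not reach the spliced-read tests below, which therefore cover 58 of the 59 genes.

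The second site is listed under fbxb-37 but lies at II:2091953, outside the annotated gene (II:2092578-2093876, minus strand). It falls in an exon of the neighbouring protein-coding gene T16A1.10 on the same strand, and only 1 of its ends is in the table. Ends listed alone are given at the listed position, which may be 1 base from the exon boundary. Unspliced reads there were 227 in wildtype 1 and 822 in rnp-2(mg582) 1. In experiment 2 they were 405 in wildtype 2, 1825 in rnp-2(mg582) 2 and 265 in rnp-2(tm4058). There were 265 in mog-2(ok1221) and 245 in rnp-3(ok1424). Spliced reads at this intron totalled 5.

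In scaled CPM the site stood at 4.63 and 5.34 in wildtype, 26.5 and 55.0 in rnp-2(mg582), 21.9 in rnp-2(tm4058), 7.77 in mog-2(ok1221) and 8.32 in rnp-3(ok1424). All 3 rnp-2 libraries lay above the other 4. In CPM as deposited, relative to the library total, the rnp-2(mg582) values of 56.4 and 19.5 were above both wildtype values of 10.9 and 4.58, but the rnp-2(tm4058) value of 1.86 was below them. Among all ends of a library its rank by unspliced reads was 18 in wildtype 1 and 14 in wildtype 2. The rank was 1 in both rnp-2(mg582) libraries, 4 in rnp-2(tm4058), 12 in mog-2(ok1221) and 9 in rnp-3(ok1424). The other fbxb-37 intron (II:2093719-2093766), which lies within the gene, had 30 spliced reads and 1 unspliced read.

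Unspliced reads were tested gene by gene between rnp-2(mg582) and wildtype with limma on log2(scaled CPM + 0.5). In this test 110 of 489 genes with enough reads passed an adjusted p of 0.05 (22.5%; 13.9% higher and 8.59% lower). Of the 59 members 15 had enough reads, and 2 of these passed. The reads listed under fbxb-37 rose from 4.99 ± 0.485 to 40.8 ± 20.1 scaled CPM, a log2 difference of 2.82 ± 0.36 (SE; adjusted p = 0.00376). Those of fbxa-149 fell from 2.18 ± 0.607 to 0.503 ± 0.157, a log2 difference of -1.41 ± 0.28 (adjusted p = 0.0127). With experiment as a block, fbxb-85 also passed (log2 -0.44 ± 0.17, adjusted p = 0.0233), 3 of 15 members (1 higher and 2 lower) against 206 genes in all (42.1%; 22.5% higher and 19.6% lower). With library size alone, or with no filter on low counts, neither gene passed and no gene of the 489 or 2278 tested did. Without wildtype 1, wildtype 2 or rnp-2(mg582) 2 neither passed, with adjusted p up to 0.0945 for fbxb-37 and 0.166 for fbxa-149. Without rnp-2(mg582) 1 fbxb-37 alone did (adjusted p = 0.0268).

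**Figure D2:**
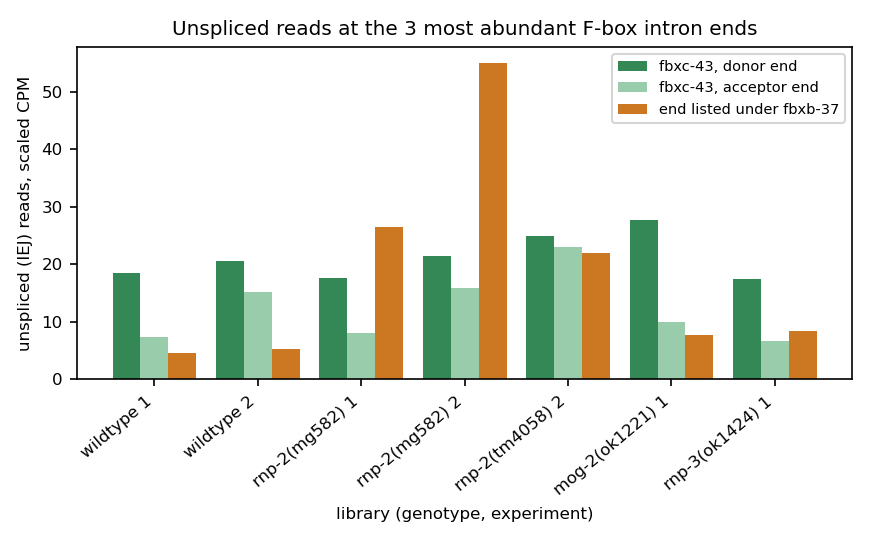
Unspliced reads in scaled CPM (bars, axis from 0) at the 3 intron ends with the most unspliced reads, for each library. The end listed under fbxb-37 stands at 4.63 and 5.34 in wildtype and at 26.5 and 55.0 in rnp-2(mg582), while the donor end of fbxc-43 stays between 17.4 and 27.7 in all 7 libraries.

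The remaining introns where unspliced reads led had fewer reads. In the pseudogene fbxa-149 (V:20516298-20518036) they marked intron 3 (V:20516974-20517014), which lies in an annotated exon, with 561 unspliced and 3 spliced reads. At its donor end the unspliced reads numbered 60 and 84 in wildtype, 8 and 8 in rnp-2(mg582), 2 in rnp-2(tm4058), 84 in mog-2(ok1221) and 61 in rnp-3(ok1424). In scaled CPM the donor end stood at 0.166 to 0.258 in the 3 rnp-2 libraries and at 1.107 to 2.46 in the other 4. At the acceptor end rnp-2(mg582) had 0.323 and 0.151, but rnp-2(tm4058), at 0.662, lay above wildtype 2, at 0.619. The pseudogene fbxc-38 had 273 unspliced reads and 1 spliced read at its intron 1 (X:8143881-8144234), which is not an annotated intron and begins outside the annotated gene. Its acceptor end had 42 and 53 unspliced reads in the wildtype pair, 28 and 34 in rnp-2(mg582), 9 in rnp-2(tm4058), 27 in mog-2(ok1221) and 28 in rnp-3(ok1424). In scaled CPM over the gene, unspliced fbxc-38 reads were 0.982 ± 0.0834 in wildtype and 1.12 ± 0.0775 in rnp-2(mg582) (log2 0.13 ± 0.23, adjusted p = 0.723).

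The site listed under fbxb-52 (II:1547812), in an exon of an annotated pseudogene outside fbxb-52, had 59 unspliced reads and 0 spliced reads. The other intron listed under fbxb-52 (II:1547260-1547306), with 41 spliced reads, also lies outside the annotated gene (II:1548938-1550601). The site at II:1547812 had 11 and 12 unspliced reads in the wildtype pair, 4 and 2 in rnp-2(mg582), 2 in rnp-2(tm4058) and 14 in each of mog-2(ok1221) and rnp-3(ok1424). Only intron 1 of fbxc-23 (end at II:13596450) and intron 1 of fbxa-218 (end at III:12438966) had every listed end at an annotated boundary. Each has only 1 listed end, so whether the whole intron is annotated was not checked. In the same order these introns had 33 unspliced and 6 spliced reads, and 41 unspliced and 13 spliced reads. Reads of fbxc-23 at this end were 5 and 13 in wildtype, 1 and 0 in rnp-2(mg582), 1 in rnp-2(tm4058), 6 in mog-2(ok1221) and 7 in rnp-3(ok1424). For fbxa-218 they were 6 and 20 in wildtype, 0 and 4 in rnp-2(mg582), 0 in rnp-2(tm4058), 9 in mog-2(ok1221) and 2 in rnp-3(ok1424).

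By class, the unspliced share of junction reads, per listed end, was 2.85% ± 0.835 for fbxa, 20.7% ± 3.26 for fbxb and 47.1% ± 10.5 for fbxc in wildtype (n = 2). In rnp-2(mg582) the shares were 1.81% ± 0.668, 66.2% ± 8.86 and 53.3% ± 9.54. Without the site listed under fbxb-37, a setting chosen after seeing the data, the fbxb share in wildtype was 3.14% ± 0.0443. Over introns with both ends listed, which also leaves out the site listed under fbxb-52, it was 2.32% ± 0.0507. Unspliced reads of the other 16 fbxb genes, summed over ends, were 1.22 ± 0.146 scaled CPM in wildtype and 0.548 ± 0.0929 in rnp-2(mg582). Their spliced reads were 21.86 ± 2.81 and 19.38 ± 2.16. The 10 fbxc genes other than fbxc-43 had 1.37 ± 0.0304 and 1.34 ± 0.155 unspliced, beside 18.15 ± 3.788 and 14.12 ± 1.77 spliced. The high fbxb and fbxc shares in both genotypes thus rest mostly on the sites listed under fbxb-37 and fbxc-43.

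Turning to spliced reads, the family was dominated by a few genes. The mean over 7 libraries was at least 5 scaled CPM in 7 genes and at least 1 in 20, and 18 genes had under 50 spliced reads in all. The highest gene, the pseudogene fbxa-149, held 20.1% of the spliced reads. A sum over a gene grows with the introns listed for it, and per listed intron fbxb-97 was highest at 10.7 scaled CPM (1 intron), followed by fbxa-203 at 6.08 (1 intron), fbxa-46 at 4.86 (2 introns) and fbxa-149 at 4.36 (5 introns). The fbxa-203 intron has 1 of its 2 listed ends at an annotated boundary. As placed, its sites read GA and GA rather than GT and AG. The genes below the highest 10 ranged from 0.0322 to 3.69.

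**Figure D3:**
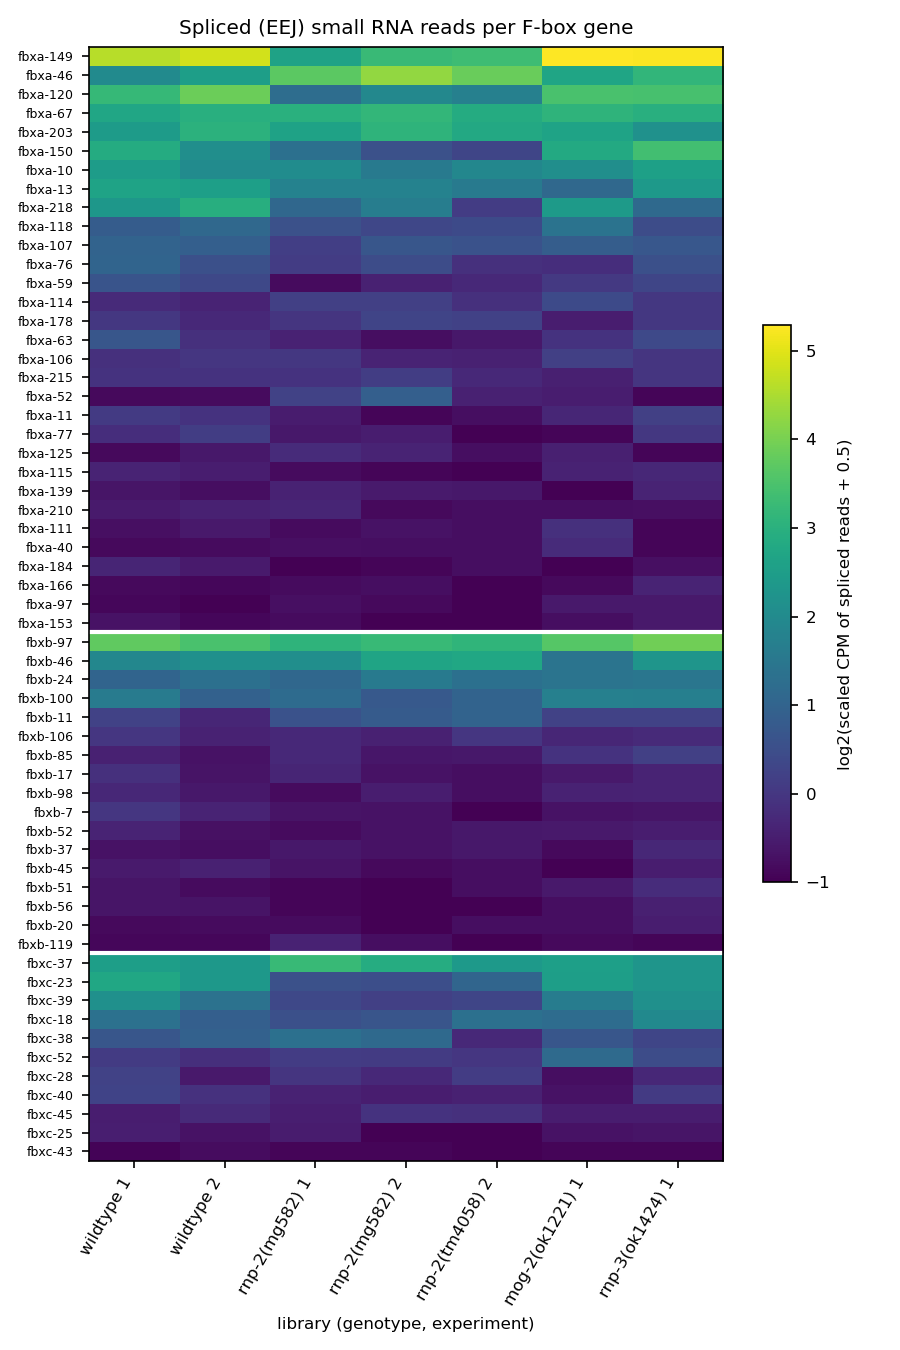
Spliced reads of the 59 genes (rows, by class and then by mean level) in the 7 libraries (columns), as log2(scaled CPM + 0.5). White lines part fbxa, fbxb and fbxc. The row of fbxa-149 is darker in the 3 rnp-2 libraries (5.68 to 9.60 scaled CPM) than in the other 4 (23.8 to 38.5), and the row of fbxa-46 is brighter there (12.5 to 18.9 against 3.51 to 8.22).

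Set against wildtype, rnp-2(mg582) asks where small RNAs over spliced junctions change when this U1 protein is mutated, and 9 of 58 members passed in limma at an adjusted p of 0.05. The 2 that rose were fbxa-46 and fbxa-52, and the 7 that fell were fbxc-23, fbxa-149, fbxa-120, fbxa-59, fbxc-39, fbxa-184 and fbxa-150. Among all 3551 genes tested 8.36% passed, 3.8% higher and 4.56% lower, and among the members 15.5% passed, 3.45% higher and 12.1% lower. The median log2 difference was -0.14 over the members and -0.02 over all genes. The libraries did not overlap between the groups in 15 members that were higher (25.9%, against 23.7% of all genes) and 23 that were lower (39.7%, against 27.4%). By class, 2 fbxa genes rose and 5 fell of 31, none of 17 fbxb genes passed, and 2 of 10 fbxc genes fell. With experiment as a block these counts were 2 and 11 for fbxa, 1 and 1 for fbxb (fbxb-11 higher, adjusted p = 0.0156, and fbxb-7 lower, 0.0255) and 1 and 3 for fbxc.

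In all, with that block, used since the titles pair the libraries by experiment, 19 members passed, 4 higher and 15 lower, against 20.4% of all genes (8.48% higher and 11.9% lower). The 9 were among the 19. When TMM was replaced by library size alone, 0 members and 0 genes of the table passed in limma, with 1 member and 93 genes at an unadjusted p under 0.05. That scaling shifted the median log2 difference of all genes to -0.24, and no direction among the 9 turned. Without wildtype 1 no member passed, without rnp-2(mg582) 1 only fbxa-52 did, without wildtype 2 the calls fell to 3 and without rnp-2(mg582) 2 to 5, with no direction turned.

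**Figure D4:**
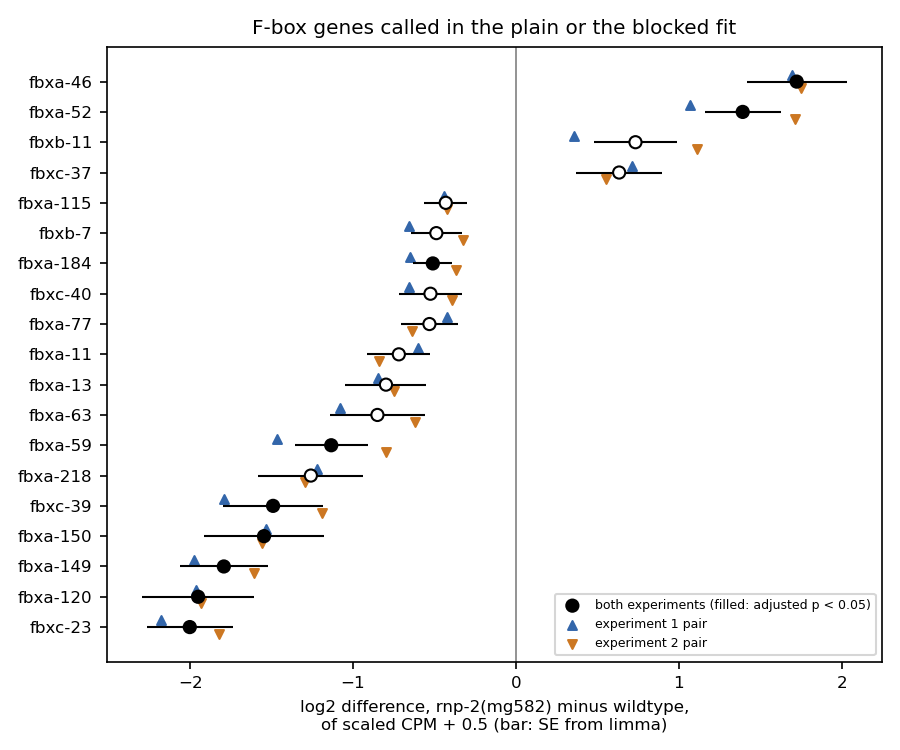
Difference between rnp-2(mg582) and wildtype in log2(scaled CPM + 0.5) of spliced reads for the 19 genes past an adjusted p of 0.05 with or without experiment as a block. Circles give both experiments with their SE, filled for the 9 past the threshold without the block, and triangles give each experiment's pair. Both pairs lie on the same side of 0 in each of the 19 genes.

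The rises came first in fbxa-46 (X:1981900-1984833, plus strand), an annotated pseudogene. It had 3.51 and 5.26 scaled CPM in wildtype, 12.5 and 18.9 in rnp-2(mg582), 13.8 in rnp-2(tm4058), 5.92 in mog-2(ok1221) and 8.22 in rnp-3(ok1424). In these gene totals all rnp-2 libraries lay above the rest. The difference between rnp-2(mg582) and wildtype was 3.30-fold (log2 1.72 ± 0.31 SE, limma adjusted p = 0.0137), and 1.70 and 1.75 on the log2 scale within experiments 1 and 2. Of the spliced reads of fbxa-46, 2107 lay at intron 1 and 88 at intron 2 over all libraries. Intron 1 went from 4.14 ± 1.38 scaled CPM in wildtype to 15.3 ± 4.79 in rnp-2(mg582) (mean ± SD). Intron 2 went from 0.246 ± 0.143 to 0.412 ± 0.285, so the rise of the gene total rests on intron 1. In rnp-2(tm4058) intron 2 differed from wildtype 2 by -0.15 on the log2 scale. Whether intron 2 rose was not tested. Noncoding RNAs on the other strand overlap this gene, and whether counting used strand is not given in the sources used here.

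The other rise, in fbxa-52 (X:1710149-1712638, minus strand), was from a low level. It had 0.0612 and 0.0659 scaled CPM in wildtype, 0.678 and 1.36 in rnp-2(mg582), 0.248 in rnp-2(tm4058), 0.205 in mog-2(ok1221) and 0.0340 in rnp-3(ok1424). The groups did not overlap, and the log2 difference was 1.39 ± 0.23 (adjusted p = 0.0109). The added 0.5 shrinks this value, and edgeR on the recovered reads gave a log2 difference of 3.93.

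The most abundant gene, fbxa-149, fell 3.47-fold in rnp-2(mg582) (log2 -1.79 ± 0.27, adjusted p = 0.00669). It had 23.8 and 28.6 scaled CPM in wildtype, 5.68 and 9.04 in rnp-2(mg582), 9.60 in rnp-2(tm4058), 38.5 in mog-2(ok1221) and 37.5 in rnp-3(ok1424). The 3 rnp-2 libraries were lowest, and both U2 mutant libraries were above wildtype. Its neighbour fbxa-150 (V:20522598-20524512, plus strand), a protein-coding gene on the other strand, also fell. It had 6.75 and 3.81 in wildtype, 2.0 and 0.964 in rnp-2(mg582), 0.745 in rnp-2(tm4058), 6.57 in mog-2(ok1221) and 9.88 in rnp-3(ok1424), and its log2 difference was -1.55 ± 0.37 (adjusted p = 0.0417).

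On chromosome X, the protein-coding gene fbxa-120 (X:17302719-17304036, plus strand) fell by 1.95 ± 0.34 on the log2 scale (adjusted p = 0.0128). Its levels were 8.77 and 14.1 in wildtype, 1.87 and 3.31 in rnp-2(mg582), 2.81 in rnp-2(tm4058), 10.6 in mog-2(ok1221) and 10.5 in rnp-3(ok1424). The within-experiment differences were -1.97 and -1.94.

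In the fbxc class, fbxc-23 (II:13595003-13596555, minus strand) fell 4.01-fold on the log2(scaled CPM + 0.5) scale (log2 -2.0 ± 0.26, adjusted p = 0.00455). It stood at 6.16 and 4.57 scaled CPM in wildtype, 0.969 and 0.934 in rnp-2(mg582), 1.57 in rnp-2(tm4058), 5.22 in mog-2(ok1221) and 4.31 in rnp-3(ok1424). The gene fbxc-39 (II:988737-991146, plus strand) had 3.92 and 2.08 in wildtype, 0.775 and 0.633 in rnp-2(mg582), 0.745 in rnp-2(tm4058), 2.61 in mog-2(ok1221) and 3.94 in rnp-3(ok1424). It fell by 1.49 ± 0.31 on the log2 scale (adjusted p = 0.0241). With no filter on low counts fbxc-39 and fbxa-150 did not pass.

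Both remaining falls were at low levels. The gene fbxa-59 (III:939941-943476, minus strand) had 1.06 and 0.791 scaled CPM in wildtype, 0.0646 and 0.241 in rnp-2(mg582), 0.331 in rnp-2(tm4058), 0.528 in mog-2(ok1221) and 0.747 in rnp-3(ok1424). Its log2 difference was -1.13 ± 0.22 (adjusted p = 0.0202). On the recovered reads edgeR gave -2.54 (adjusted p = 0.0135) and DESeq2 gave -2.59, which it did not call (adjusted p = 0.126). The gene fbxa-184 (II:1710259-1711417, plus strand) had 33 spliced reads in all. It had 0.286 and 0.185 scaled CPM in wildtype, 0 and 0.0301 in rnp-2(mg582), 0.0828 in rnp-2(tm4058), 0 in mog-2(ok1221) and 0.102 in rnp-3(ok1424). The log2 difference was -0.51 ± 0.12 (adjusted p = 0.0392). The added 0.5 shrinks it too, since edgeR on the recovered reads gave -3.63, which was not called (adjusted p = 0.0645).

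Highly read members that did not pass show how uneven the family was. The fbxb gene with the most spliced reads, fbxb-97 (II:1846977-1848161), had 13.0 and 10.6 in wildtype, 7.94 and 8.98 in rnp-2(mg582), 8.11 in rnp-2(tm4058), 11.8 in mog-2(ok1221) and 14.6 in rnp-3(ok1424) (log2 -0.45 ± 0.24, adjusted p = 0.336). The gene fbxa-67 had 6.10 and 7.31 in wildtype, 7.49 and 8.47 in rnp-2(mg582), 6.79 in rnp-2(tm4058), 8.03 in mog-2(ok1221) and 7.27 in rnp-3(ok1424) (log2 0.24 ± 0.25, adjusted p = 0.645). Its 7 values lay close together.

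Levels of the pseudogene fbxa-203 were 5.0 and 7.64 in wildtype, 5.68 and 8.02 in rnp-2(mg582), 6.46 in rnp-2(tm4058), 5.72 in mog-2(ok1221) and 4.04 in rnp-3(ok1424). Those of fbxb-46 were 3.26 and 3.98 in wildtype, 3.78 and 5.91 in rnp-2(mg582), 6.21 in rnp-2(tm4058), 2.17 in mog-2(ok1221) and 4.38 in rnp-3(ok1424). In both genes the wildtype and rnp-2(mg582) values overlapped. For fbxa-10 the values were 5.06 and 3.57 in wildtype, 3.68 and 2.44 in rnp-2(mg582), 3.23 in rnp-2(tm4058), 3.78 in mog-2(ok1221) and 5.4 in rnp-3(ok1424). The gene fbxb-24 had 1.55 and 1.98 in wildtype, 1.65 and 2.50 in rnp-2(mg582), 1.99 in rnp-2(tm4058), 2.17 in mog-2(ok1221) and 2.24 in rnp-3(ok1424). Its junction overlaps faah-4 on the other strand. The values are spliced reads at a junction with both ends at annotated boundaries on the strand of fbxb-24. Its 4 unspliced reads cannot be assigned to 1 of the 2 genes, since use of strand in counting is not given.

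Summed over the class, fbxa spliced reads were 79.8 and 91.9 scaled CPM in wildtype, 50.5 and 64.5 in rnp-2(mg582), 51.8 in rnp-2(tm4058), 94.5 in mog-2(ok1221) and 98.4 in rnp-3(ok1424). Without fbxa-149 the other 30 fbxa genes summed to 55.9 and 63.3 in wildtype and 44.8 and 55.5 in rnp-2(mg582). The fbxb sum was 23.97 and 19.97 in wildtype and 18.02 and 21.03 in rnp-2(mg582), which overlapped. The fbxc sum was 20.9 and 15.6 in wildtype and 15.4 and 12.9 in rnp-2(mg582). Reads of each class sum over unequal genes and were not tested.

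Within genes, the introns of fbxa-149 and fbxa-120 carried very different numbers of spliced reads. In fbxa-149 introns 1, 2, 4 and 5 had 120, 164, 1989 and 4070 reads over the 7 libraries, so the reads lay mostly at the 3' end of the gene. Wildtype levels there were 0.461 ± 0.0750, 0.616 ± 0.00524, 7.94 ± 1.22 and 17.2 ± 2.07 scaled CPM, and those of rnp-2(mg582) were 0.124 ± 0.0380, 0.0926 ± 0.0396, 2.55 ± 1.09 and 4.60 ± 1.21. Each of these 4 introns was lower in rnp-2(mg582) than in wildtype in both experiments.

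Intron 1 of fbxa-120 (X:17302787-17302853) parted from introns 2 and 3 in the U2 mutant libraries. In wildtype 1 the 3 introns had 101, 85 and 244 spliced reads. In mog-2(ok1221) they had 27, 103 and 231, and in rnp-3(ok1424) 28, 90 and 191. On the log2(scaled CPM + 0.5) scale intron 1 differed from wildtype 1 by -0.99 in mog-2(ok1221) and -0.82 in rnp-3(ok1424), whereas intron 2 differed by 0.66 and 0.67 and intron 3 by 0.41 and 0.35. In rnp-2(mg582) all 3 introns were lower, with log2 differences of -1.38, -1.56 and -1.75 in experiment 1. These are values of single libraries with no test. The sites of introns 1 and 2 were as follows, with the same use of capitals.
fbxa-120 intron 1 donor: gagaaGTtagtttat
fbxa-120 intron 1 acceptor: aattttccAGttcca
fbxa-120 intron 2 donor: aatcgGTaaaatcaa
fbxa-120 intron 2 acceptor: caactttcAGacttg

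**Figure D5:**
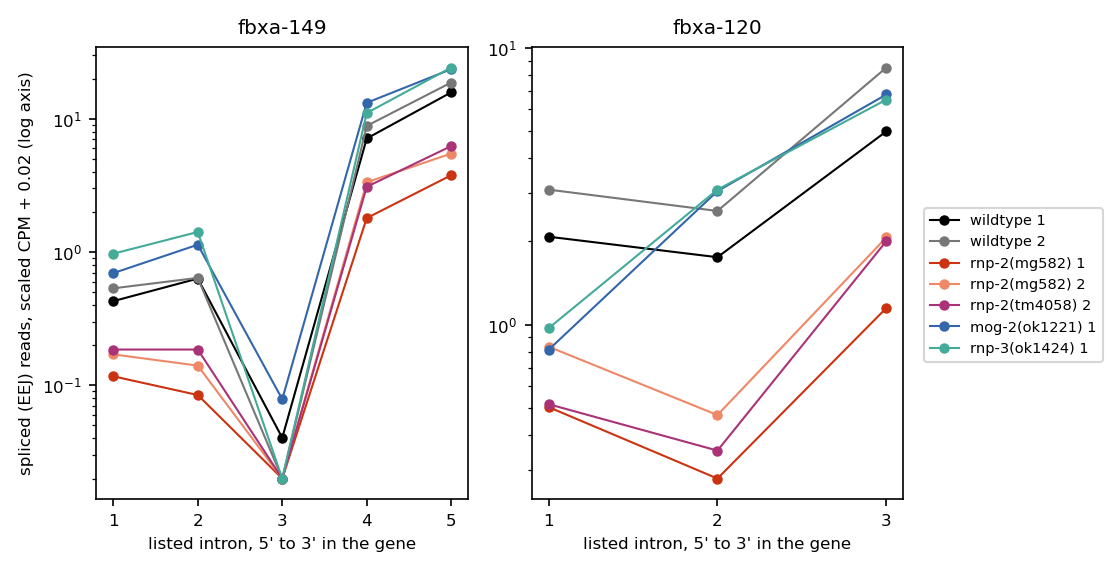
Spliced reads at each listed intron of fbxa-149 and fbxa-120, numbered from the 5' end of the gene, in scaled CPM with 0.02 added on a log axis; each line is a library. Intron 3 of fbxa-149 holds 3 spliced reads in all, and intron 1 of fbxa-120 has 27 and 28 reads in mog-2(ok1221) and rnp-3(ok1424).

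The gene fbxa-218 (III:12436515-12441058, plus strand) gave 4.51 and 7.24 scaled CPM in wildtype, 1.65 and 2.65 in rnp-2(mg582), 0.579 in rnp-2(tm4058), 4.87 in mog-2(ok1221) and 1.70 in rnp-3(ok1424). It missed the threshold in limma (log2 -1.26 ± 0.32, adjusted p = 0.0543) and passed with experiment as a block (adjusted p = 5.16e-05). Most of its reads lay at intron 2 (III:12439444-12439699), with 178 and 507 in wildtype, 34 and 73 in rnp-2(mg582), 3 in rnp-2(tm4058), 91 in mog-2(ok1221) and 35 in rnp-3(ok1424). Introns 3 and 4 had 75 and 123 reads in all. Relative to the wildtype library of the same experiment, intron 2 differed by -3.26 in rnp-2(tm4058) on the log2(scaled CPM + 0.5) scale, where introns 3 and 4 differed by -0.12 and -0.22. These introns cannot be compared on that scale. Wildtype means were 5.16 ± 2.16, 0.265 ± 0.0580 and 0.424 ± 0.208 scaled CPM, so the added 0.5 allows only small falls at introns 3 and 4. The whole gene had 7 spliced reads in rnp-2(tm4058).

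The change in the ratio of unspliced to spliced reads per intron was tested with limma on the deposited CPM with 0.5 added. None of 93 member introns and none of 7577 introns passed (0%), with 2 and 228 at an unadjusted p under 0.05. With experiment as a block 20 member introns passed (19 higher and 1 lower), against 737 introns in all (9.73%; 7.23% higher and 2.49% lower). With TMM-scaled CPM, an alternative chosen after seeing the data, 14 member introns (12 higher and 2 lower) and 422 introns passed. Where an intron has almost no unspliced reads, this ratio mirrors the spliced reads alone.

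Members were also searched for copies of the same junction. The pseudogenes fbxc-37 (X:1779232-1780527) and fbxc-38 (X:8143965-8145029) share all 30 bases listed around their second junction. Of these, 20 are intron bases, and the exons beyond 5 bases on either side were not compared, so whether a spliced read here can be assigned to 1 copy was not tested.
fbxc-37 and fbxc-38 intron 2 donor: aaaaaGTaagttata
fbxc-37 and fbxc-38 intron 2 acceptor: atgttttcAGatcaa
This junction has 565 spliced reads listed under fbxc-37 (X:1780358-1780406) and 345 under fbxc-38 (X:8144858-8144906). The first junction of fbxc-37, which has no such copy among the members, had 913. Gene totals of fbxc-37 were 5.26 and 4.56 scaled CPM in wildtype, 8.94 and 6.93 in rnp-2(mg582), 4.8 in rnp-2(tm4058), 5.34 in mog-2(ok1221) and 4.31 in rnp-3(ok1424) (log2 0.63 ± 0.26, adjusted p = 0.215; with experiment as a block 0.0246). Those of fbxc-38 were 1.10 and 1.44 in wildtype, 2.0 and 1.72 in rnp-2(mg582), 0.331 in rnp-2(tm4058), 1.11 in mog-2(ok1221) and 0.747 in rnp-3(ok1424) (log2 0.42 ± 0.23, adjusted p = 0.354). At the shared junction the log2 difference in rnp-2(tm4058) was -0.80 for fbxc-37 and -1.22 for fbxc-38, while it was 0.46 at the first junction of fbxc-37.

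Junctions within 3 differences of a member's over the 30 bases were also found for fbxa-59, with C47F8.1, and for fbxb-37, with trpp-6. Neither partner is a member, and most of the bases compared are intron bases. How often unrelated junctions come this close was not tested. Donors of fbxa-106 and fbxa-114 share all 15 bases, but their acceptors differ. Both lines of fbxa-40 lie in Y59E1A.4, outside the annotated fbxa-40, and its 28 spliced reads cannot be assigned to fbxa-40. All listed reads of fbxb-52 likewise lie outside the annotated gene.

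There were 27 members in 11 groups with gaps of at most 20000 bases, of which 6 groups are given here as examples, chosen after their values were seen. In fbxa-149 and fbxa-150 both fell. In the group of fbxa-59, fbxa-67, fbxa-11 and fbxa-10 the log2 differences in rnp-2(mg582) were -1.13, 0.24, -0.72 and -0.44, of which the first passed, and fbxa-11 did so with experiment as a block (adjusted p = 0.00473). For fbxc-18, fbxc-40 and fbxc-39 they were -0.52, -0.52 and -1.49, of which the last passed, and fbxc-40 did so with the block (adjusted p = 0.0465). For fbxa-114 and fbxa-115 they were 0.49 and -0.43, and fbxa-115 passed with the block alone (adjusted p = 0.0376). For fbxb-56 and fbxb-100 they were -0.30 and -0.31, neither past the threshold, but the added 0.5 shrinks the first. In scaled CPM fbxb-56 went from 0.137 ± 0.00779 in wildtype to 0.0161 ± 0.0228 in rnp-2(mg582). The gene fbxb-100 went from 1.99 ± 0.797 to 1.48 ± 0.425. For fbxa-63, fbxa-76 and fbxa-77 they were -0.85, -0.49 and -0.53, and fbxa-63 and fbxa-77 passed with the block alone (adjusted p = 0.00233 and 0.0281).

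The single rnp-2(tm4058) library was set beside wildtype 2 and described by a 2-fold difference on the log2(scaled CPM + 0.5) scale, with no test. Higher were 2 of 58 members, fbxa-46 (log2 1.31) and fbxb-11 (1.31), against 3.75% of all genes. Lower were 8 members, against 5.94% of all genes: fbxa-218 (-2.84), fbxa-120 (-2.14), fbxa-150 (-1.79), fbxa-149 (-1.53), fbxc-23 (-1.29), fbxc-38 (-1.22), fbxa-77 (-1.15) and fbxc-39 (-1.05). The median was -0.18 over the members and -0.07 over all genes. This library shares wildtype 2 with the rnp-2(mg582) comparison, so the lists are not independent. For the 9 genes called between rnp-2(mg582) and wildtype, the differences of both alleles from wildtype 2 are given side by side. In the rises those of rnp-2(mg582) and rnp-2(tm4058) were 1.75 and 1.31 in fbxa-46, and 1.71 and 0.40 in fbxa-52. For the more abundant falls they were -1.61 and -1.53 in fbxa-149, -1.94 and -2.14 in fbxa-120, -1.56 and -1.79 in fbxa-150, -1.82 and -1.29 in fbxc-23, and -1.19 and -1.05 in fbxc-39. They were -0.80 and -0.64 in fbxa-59 and -0.37 and -0.23 in fbxa-184. With library size alone, 0 members were higher (0.0563% of all genes) and 23 were lower (39.7%, against 30.9% of all genes), with a median of -0.60 over the members and over all genes alike. This library had the fewest junction reads, 0.0564% of its total.

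Beside wildtype 1, the mog-2(ok1221) library had 1 member more than 2-fold higher, fbxc-52 (log2 1.08), and 2 lower, fbxa-13 (-1.52) and fbxa-76 (-1.20). The shares of all genes were 3.44% and 4.48%. Of the 2 ends listed for fbxa-76, 0 are at annotated boundaries. The rnp-3(ok1424) library had 1 higher, fbxa-46 (1.12), and 1 lower, fbxa-218 (-1.19), against 1.24% and 1.58%. Differences of fbxa-149 were 0.68 and 0.64 in these libraries. Median differences of the members were -0.08 and 0.01. When the 5 mutant libraries were compared with the 2 wildtype libraries in limma, 0 of 58 members and 0 of 3551 genes passed (0%), with 8 and 328 at an unadjusted p under 0.05. Of the other tools, edgeR called 0 members and 0 genes, and DESeq2 called 0 members and 53 genes. When rnp-3(ok1424) was left out, limma called 86 genes, none of them members.

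Other genes of the ubiquitin ligase pathway gave few reads. A list of 50 named genes held the SCF and related machinery, other F-box genes and also gld-1, which is not a ubiquitin ligase gene. Of these 50 genes, 10 were in the table, gld-1 included, and none passed between rnp-2(mg582) and wildtype. Among them cul-4, a cullin scaffold of another ligase class, had 1.45 ± 0.237 scaled CPM in wildtype and 1.76 ± 0.0641 in rnp-2(mg582) (adjusted p = 0.661). The ring subunit gene rbx-1 had 0.107 ± 0.0213 and 0.111 ± 0.0716 (adjusted p = 0.991), and sel-10, whose F-box protein acts on Notch in worms, had 0.196 ± 0.133 and 0.248 ± 0.0761 (adjusted p = 0.777). The gene skr-18, of the Skp1-related family that binds F-boxes, had 0.164 ± 0.0293 and 0.175 ± 0.163 (adjusted p = 0.993).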

How the data were processed

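The deposited table gives CPM per intron end and library, made by the authors with STAR and SAMtools named in the submitters' processing notes. For aligner settings, genome build, reads with several alignments and use of strand: not given in the sources used here. Every line reaches 0.505 CPM in some column, so weaker junctions are not analysed here. All values (100%) were whole multiples of a step per library within 1e-06 reads, so whole reads and library totals were recovered. Of 14533 lines, 98.1% match boundaries of the WBcel235 annotation, as do 169 of 180 member lines. Coordinates are read as WBcel235, 1-based. Names matched the annotation for 51 members and RefSeq symbols for 8.

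Spliced reads were summed over the introns of a gene. Introns of a gene with spliced reads within 5% were counted once, which touched no member. Groups were compared with limma 3.58.1 (trended empirical Bayes, Benjamini-Hochberg) in R 4.3.3 on log2(CPM scaled by TMM + 0.5) over 7 libraries, with TMM from edgeR 4.0.16 (factors 0.0846 to 2.97) and filterByExpr (minimum count 10, minimum total 15). Fold changes are on that scale and understate changes of low genes. Genotypes with 1 library are assumed to vary like the others. The ratio test used deposited CPM, which the added 0.5 leaves dependent on the library's scaling. edgeR's quasi-likelihood test and DESeq2 1.42.0 on recovered reads were alternatives. The procedure was tested on simulated counts, with changes set only in genes with many reads and with no difference between experiments. That test does not cover members with few reads or an effect of experiment.

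Titles number the experiments, so equal numbers pair libraries, and deviations from group means within experiments correlated at 0.382 over 3551 genes. Members and gene lists were chosen with earlier results of these data known. Values in every library are given for the 10 genes with the highest mean, the highest 3 of each class, genes past the threshold, genes where unspliced reads lead, and near-identical copies; other genes named were chosen after their values were seen. Protein and promoter sequences were not used here.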

Additional observations from a re-analysis of the deposited data

How the results depend on the processing

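Calls among the F-box genes depended on scaling and on single libraries. For spliced reads in rnp-2(mg582), 9 members and 297 genes became 0 and 0 with library size alone, 19 and 725 with experiment as a block, and 0 to 5 and 1 to 141 when a library was left out; DESeq2 called 181 genes. Median-of-ratios factors, edgeR, DESeq2, pseudocounts of 0.1 and 1, no filter and no joining of introns gave 7 to 10 members, and no direction turned. At an unadjusted p under 0.05, DESeq2 had 10 of 58 members and 365 of 3551 genes. The others of these settings each had 22 members, beside 762 to 779 genes. Across the 5 mutant libraries DESeq2 called 53 genes, and leaving out a library gave 0 to 86 genes and 0 members. For unspliced reads, 2 members and 110 genes became 0 and 0 with library size alone and 0 and 0 with no filter; the block gave 206 genes, and leaving out a library gave 0 to 1 members and 0 to 32 genes. For the ratio, 0 and 0 became 20 member introns and 737 introns with the block, 14 and 422 with TMM-scaled CPM, and 0 to 136 introns without a library. Members past 2-fold in rnp-2(tm4058), 2 higher and 8 lower, became 0 and 23 with library size alone (0.0563% and 30.9% of all genes) and 1 and 5 with a pseudocount of 1 (2.08% and 3.58%). In mog-2(ok1221), 1 and 2 became 4 and 7 (8.31% and 7.55%), and 0 and 1 (1.91% and 2.2%). In rnp-3(ok1424), 1 higher became 4 with library size alone (5.86%). The fbxb unspliced share of 20.7% became 2.32% over introns with both ends listed and 3.14% without the site listed under fbxb-37, a setting chosen after seeing the data. The cause of these differences was not tested, and some alternatives rest on fewer reads or libraries. Precision is lowest in rnp-2(tm4058), with 1011 spliced member reads.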
